A study of Rattus norvegicus with 8 samples.

Results

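The mitochondrial respiratory chain was followed here through 87 of the 14217 genes that the rat arrays measured. They are the genes whose symbols mark them as nuclear-encoded parts of complexes I to V or close associates. Symbols starting with Ndufa, Ndufb, Ndufc, Ndufs, Ndufv, Uqcr, Atp5 or Cox4 to Cox8 were taken, together with Sdha, Sdhb, Sdhc, Sdhd and Cyc1. Where a gene had more than 1 probe set (a group of short probes for 1 transcript), the one with the highest mean over all 8 arrays stood for it. The rule gave 34 genes of complex I, 4 of complex II, 8 of complex III, 18 of complex IV, 15 of complex V and 8 that are not subunits, mostly assembly factors whose symbols start with Ndufaf. RNA came from whole testes of male Fischer 344 rat fetuses at gestational day 20. In 4 samples the dams had been gavaged with corn oil, and in 4 with dibutyl phthalate (DBP) in the same oil at 50 mg/kg of body weight, both at 1 ml/kg, once a day from day 12 to day 20 of gestation. Testes were taken 6 h after the last gavage and frozen. The question addressed was which transcripts of the fetal testis differ after DBP. How many fetuses or litters stand behind a sample is not stated in the labels, so each p-value covers the spread among these 8 samples alone. Precision is limited by having 4 arrays per group.

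The respiratory chain sits in the inner mitochondrial membrane. Complex I (NADH dehydrogenase) and complex II (succinate dehydrogenase) feed electrons to coenzyme Q, complex III passes them to cytochrome c, and complex IV (cytochrome c oxidase) hands them to oxygen. Proton pumping by complexes I, III and IV drives complex V, the ATP synthase. Most subunits are encoded in the nucleus and a few of complexes I, III, IV and V in mitochondrial DNA, while complex II is wholly nuclear. In the testis, Leydig cells also need mitochondria for steroid synthesis, since side-chain cleavage of cholesterol takes place inside them. The transcription factors NRF1, GABP and YY1 are known to bind promoters of many of these nuclear genes.

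Promoters were available for 78 of the 87 members from RefSeq (build GRCr8), each covering 250 bases before and 50 after the transcription start. The NRF1 letters (GCGCA, any 1 base, then GCGC), on either strand, stood in 15 of these 78 (19.2%), against 4.71% of all 27457 promoters of that length. The core of the GABP site, CCGGAAG, stood in 22 (28.2%, against 9.22%), and the YY1 letters AAGATGGCG in 11 (14.1%, against 1.93%). At least 1 of the motifs was present in 41 members (52.6%) and in 14.3% of all promoters. To show how these matches lie in front of a gene, the 250 bases upstream of the start follow for the member with the smallest unadjusted p in each complex. They are Ndufb8 of complex I (chr1:253362937-253363186, minus strand), Sdha of complex II (chr1:30764303-30764552, plus strand), Uqcrq of complex III (chr10:38089979-38090228, minus strand), Cox8a of complex IV (chr1:213833624-213833873, minus strand) and Atp5me of complex V (chr14:1464610-1464859, plus strand). Sequences read 5′ to 3′ toward the gene, and capitals mark NRF1 and GABP matches on either strand.
Ndufb8: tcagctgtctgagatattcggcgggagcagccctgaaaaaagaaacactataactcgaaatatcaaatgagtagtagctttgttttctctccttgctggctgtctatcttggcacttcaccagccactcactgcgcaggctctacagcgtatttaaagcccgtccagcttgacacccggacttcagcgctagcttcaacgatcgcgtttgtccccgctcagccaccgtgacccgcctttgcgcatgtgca
Sdha: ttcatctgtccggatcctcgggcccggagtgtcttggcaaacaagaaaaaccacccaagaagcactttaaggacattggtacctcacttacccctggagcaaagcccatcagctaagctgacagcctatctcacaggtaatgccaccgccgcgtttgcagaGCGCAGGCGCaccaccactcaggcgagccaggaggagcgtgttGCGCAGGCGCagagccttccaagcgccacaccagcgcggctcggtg
Uqcrq: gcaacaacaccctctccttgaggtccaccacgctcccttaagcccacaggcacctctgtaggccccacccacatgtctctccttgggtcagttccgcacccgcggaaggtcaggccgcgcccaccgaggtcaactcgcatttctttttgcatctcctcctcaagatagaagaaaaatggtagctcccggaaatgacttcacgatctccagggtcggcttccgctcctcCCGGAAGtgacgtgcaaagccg
Cox8a: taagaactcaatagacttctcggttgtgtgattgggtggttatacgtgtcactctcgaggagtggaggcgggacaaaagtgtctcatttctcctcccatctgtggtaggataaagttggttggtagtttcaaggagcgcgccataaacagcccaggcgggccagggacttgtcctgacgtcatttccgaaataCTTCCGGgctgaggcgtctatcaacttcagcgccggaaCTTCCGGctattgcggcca
Atp5me: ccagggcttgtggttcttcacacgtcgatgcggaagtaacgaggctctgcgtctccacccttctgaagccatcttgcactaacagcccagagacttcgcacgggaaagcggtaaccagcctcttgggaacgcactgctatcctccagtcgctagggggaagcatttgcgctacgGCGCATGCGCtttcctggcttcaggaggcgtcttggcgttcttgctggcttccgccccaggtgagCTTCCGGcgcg
Sdha carried the NRF1 letters in 2 printed places, Uqcrq the GABP core once and Cox8a the GABP core in 2 places on the opposite strand. Atp5me held both, NRF1 76 to 67 bases and GABP, on the opposite strand, 11 to 5 bases before the start. No match of one motif overlapped a match of another in these promoters. The single match of Ndufb8, to YY1, lay 22 to 30 bases after the start and so outside the printed stretch, as did a further NRF1 match of Sdha that reaches over the start. A match is a run of letters and was not tested as a site. Members with and without the NRF1 letters had median log2 changes after DBP of 0.10 and 0.098, and with and without the GABP core of 0.098 and 0.10.

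Array medians lay between 6.08 and 6.13 (log2) and correlations between any pair of arrays between 0.991 and 0.998. The SD of the log2 values within an array was smallest on DBP replicates 3 and 4. It was 2.194 and 2.182 there, against 2.23 to 2.253 on the other 6. The poly-A controls, bacterial RNAs spiked in ahead of labelling, were dim on DBP replicates 3 and 4, with mean log2 values of 4.84 and 4.79 against 6.46 to 7.17 on the other 6. DBP replicate 3 also had the lowest RNA integrity number, 8.6 against 8.7 or 8.8. Values with and without these arrays are therefore given below. Leydig cell genes were well measured, with 7 of 7 listed markers above a log2 of 5 on average and a summed log2 level of 14.5 to 14.56 in vehicle and 14.45 to 14.59 after DBP. Single Leydig markers went both ways, with 0 past the threshold and 4 of 7 at an unadjusted p under 0.05: Insl3 gave -0.34 and Lhcgr -0.21, and Hsd3b1 gave 0.17 and Hsd17b3 0.195. Of 7 listed Sertoli markers 6 were measured, 0 passed and 3 had an unadjusted p under 0.05, with Inhbb at -0.35 (adjusted p = 0.0614 in limma), Aard at 0.24 and Clu at 0.25. Over all genes, 11.3% were higher and 7.84% lower at an unadjusted p under 0.05. Among lists of other cells, erythroid genes had a median change of 0.278. Their median distance from vehicle was 0.572 and 0.6 in DBP replicates 1 and 2 but -0.083 and -0.16 in replicates 3 and 4. Peritubular myoid genes had a median change of 0.189 and macrophage genes 0.104. Plvap of endothelium was the 1 marker past the threshold (0.36, adjusted p = 0.0471), while its list had a median of -0.005. The part of these shifts in the members' values was not tested. In whole tissue, more cells of a type and more RNA per cell cannot be told apart.

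After DBP, respiratory chain transcripts lay slightly higher as a group, but no member passed the test. In limma, 0 of 87 members had a Benjamini-Hochberg adjusted p under 0.05, where 1.22% of all genes and 1.07% of all probe sets did; the smallest adjusted p was 0.154. The log2 change (DBP minus vehicle) was above 0 for 77 members (88.5%) and below 0 for 10, against 57.3% of all genes above 0. The median was 0.10 over the members and 0.022 over all genes. An unadjusted p under 0.05 was seen for 19 members, all higher (21.8%), against 11.3% of all genes higher and 7.84% lower. In 17 members all DBP arrays lay above all vehicle arrays (19.5%, against 7.31% of all genes), and in 0 did they lie below (5.56% of all genes). Members share arrays and were chosen with results known, so these shares describe the list and carry no test. The changes were small. Of the 87, 1 (Cox7b2) differed by 1.2-fold or more, and for the other 86 the upper end of the 95% confidence interval was at most 0.48 on the log2 scale.

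**Figure D1:**
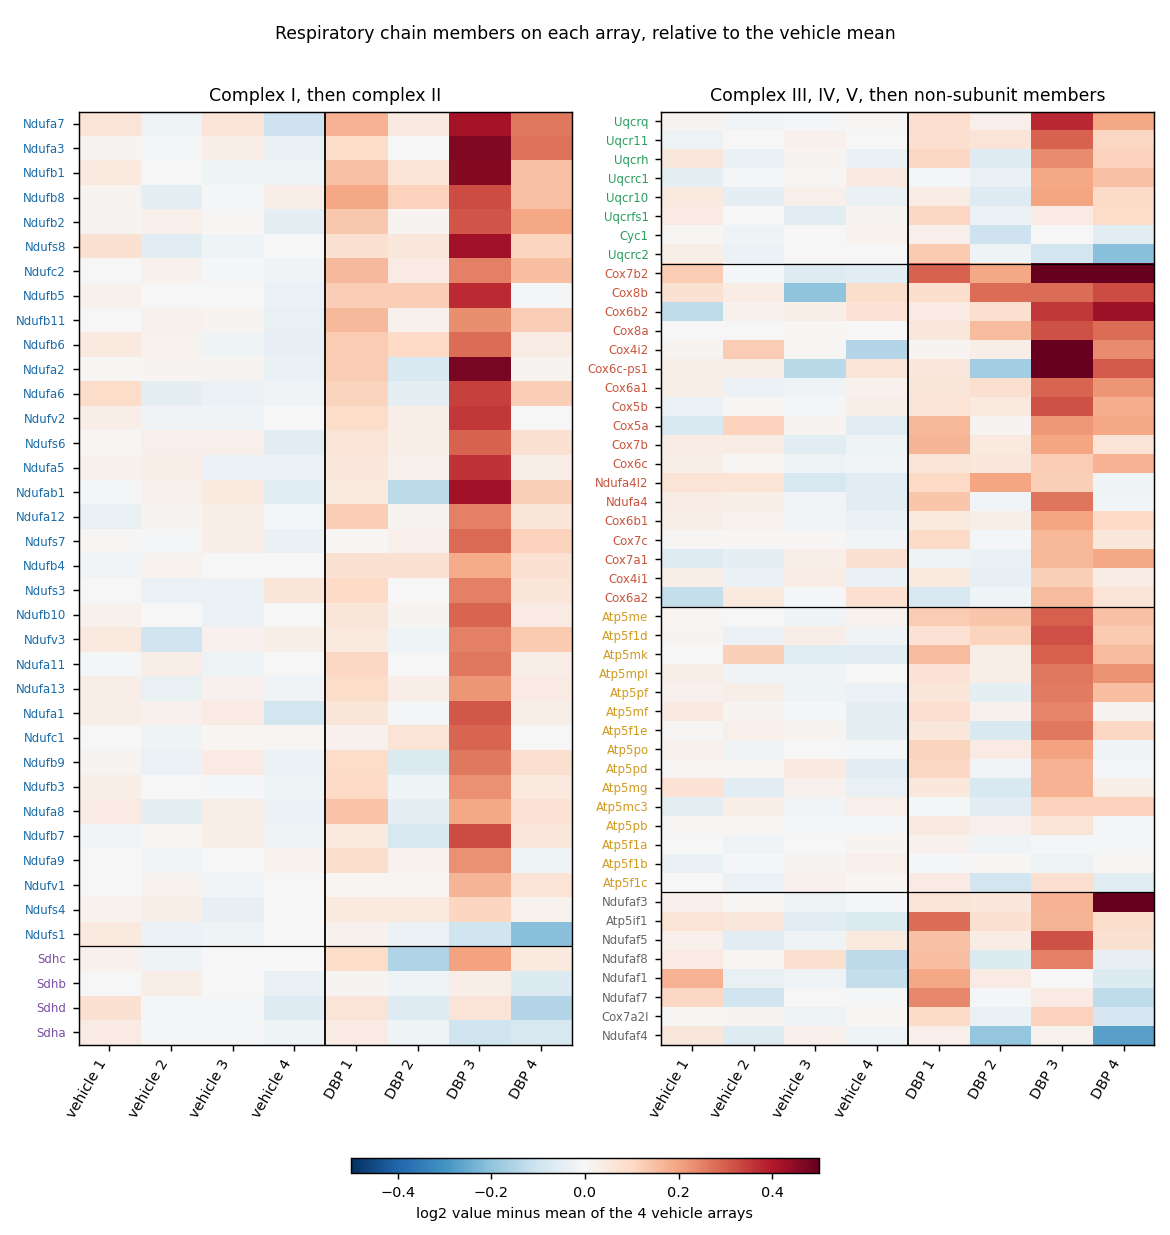
Each row is a member and each column an array, coloured by the log2 value minus that gene's mean over the 4 vehicle arrays; colours stop at 0.5, which DBP values of Cox7b2, Cox4i2, Cox6c-ps1 and Ndufaf3 exceed. Row names are coloured by complex, and 66 of the 87 members have their highest value in the DBP 3 column.

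The shift was unequal among the DBP arrays. The median distance of the members from their vehicle mean was 0.083 in DBP replicate 1, 0.012 in replicate 2, 0.25 in replicate 3 and 0.072 in replicate 4. On the vehicle arrays it stayed between -0.018 and 0.02. Thus replicate 2 lay within the range of the vehicle arrays and replicate 3 far above the rest. For 66 members (75.9%) the highest of all 8 values was on DBP replicate 3, against 22.6% of all genes, and 75 members exceeded every vehicle array there. The same count was 66 in replicate 1, 26 in replicate 2 and 53 in replicate 4. Of all 14217 genes, 5703 exceeded every vehicle array in replicate 3, 4775 in replicate 1, 4069 in replicate 2 and 5124 in replicate 4. The share of members in replicate 2 was thus close to that of all genes. Without DBP replicate 3 the median change was 0.052, against 0.018 for all genes, and 75 members stayed above 0. DBP replicates 1 and 2 alone against vehicle gave a median of 0.048, with 69 members above 0 and 0 past the threshold (1.67% of all genes passed). Replicates 3 and 4 alone gave 0.158 and 13 members past the threshold, all higher (7.43% of all genes passed as higher). Replicates 3 and 4, with dim spike-ins, had the medians of 0.25 and 0.072, and replicates 1 and 2, with brighter ones, those of 0.083 and 0.012. The part of the spike-in difference in the shift was not tested. With the RNA integrity number as a covariate the median was 0.057 and 0 members passed. The spread was wider after DBP than in vehicle, with a median SD over the members of 0.11 against 0.032; the same SDs over all genes were 0.119 and 0.066.

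Complex I values lay slightly above vehicle in nearly every measured subunit, and 0 passed the test. Of 34 members 33 had a change above 0, with a median of 0.11 and a range from -0.08 to 0.225. An unadjusted p under 0.05 was seen for 7, all higher (20.6%, against 11.3% of all genes higher). Ndufb8, an accessory subunit of the membrane arm, had values of 8.37, 8.31, 8.35 and 8.39 in vehicle replicates 1 to 4 and 8.55, 8.47, 8.68 and 8.50 after DBP. The groups did not overlap, and the change was 0.195 ± 0.061 (SE, n = 4 per group; adjusted p = 0.154 in limma). Ndufa7, another accessory subunit, was at 10.52, 10.43, 10.52 and 10.35 in vehicle and 10.63, 10.50, 10.87 and 10.72 after DBP. Its groups overlapped through DBP replicate 2 (change 0.225, 95% interval 0.042 to 0.41; adjusted p = 0.203). Ndufc2 was at 10.56, 10.58, 10.55 and 10.54 in vehicle and at 10.72, 10.60, 10.81 and 10.71 after DBP, without overlap (0.15 ± 0.059, adjusted p = 0.222). For Ndufb1 the vehicle values were 10.00, 9.95, 9.93 and 9.93 and the DBP values 10.10, 10.02, 10.41 and 10.10. Replicate 3 stood highest by far, and the change was 0.205 (adjusted p = 0.236). The 11 measured Ndufb genes, subunits of the membrane arm, all had changes above 0, with a median of 0.135, as did the 12 genes of complex I whose symbols start with Ndufa, with a median of 0.114. Exceptions under the alternatives were Ndufb7 and Ndufab1 with DBP replicates 1 and 2 alone, and Ndufa9 in the mean over its probe sets, each below 0.

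Against this, Ndufs1, the largest iron-sulfur subunit of the arm that takes up electrons from NADH, was the only complex I member below 0. Its vehicle values were 10.02, 9.94, 9.95 and 9.97, and its DBP values 9.99, 9.94, 9.87 and 9.76. Replicates 3 and 4 were its lowest, although 66 of the 87 members were highest on replicate 3. Its change was -0.080 (interval -0.22 to 0.06, adjusted p = 0.509). Ndufv1, which binds NADH, was at 10.34 to 10.37 in vehicle and at 10.36, 10.36, 10.52 and 10.42 after DBP (0.062 ± 0.057, adjusted p = 0.567). The 6 measured core subunits (Ndufs1, Ndufs3, Ndufs7, Ndufs8, Ndufv1 and Ndufv2, a grouping made after the values were seen) had a median of 0.105 and the 28 other subunits one of 0.114. Ndufab1, the mitochondrial acyl carrier protein that is also a complex I subunit, spread widely after DBP. It was at 11.15, 10.97, 11.52 and 11.22, against 11.09, 11.12, 11.15 and 11.04 in vehicle, so that 1 DBP array lay below all vehicle arrays (change 0.115, interval -0.11 to 0.34). The change rested on DBP replicate 3, without which it was 0.013.

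Complex II, which also serves the citric acid cycle and pumps no protons, showed the least shift of the complexes. Its 4 members had a median of -0.015, 1 above and 3 below 0, and 0 had an unadjusted p under 0.05. Sdha, the flavoprotein that oxidises succinate, was at 10.88, 10.83, 10.83 and 10.82 in vehicle and at 10.88, 10.82, 10.74 and 10.76 after DBP, a change of -0.040 (interval -0.16 to 0.082). Sdhb, the iron-sulfur subunit, was at 11.31, 11.34, 11.31 and 11.27 in vehicle and at 11.32, 11.29, 11.34 and 11.24 after DBP (-0.010, interval -0.13 to 0.11). These groups overlapped almost wholly. Of the membrane anchors, Sdhc spread from 10.43 to 10.78 after DBP against 10.56 to 10.60 in vehicle (0.048, interval -0.12 to 0.21), and Sdhd gave -0.020 (interval -0.17 to 0.13). On DBP replicate 3 the median of the 4 was 0.049, against 0.25 over all members. The signs of Sdha, Sdhb, Sdhc and Sdhd each turned under some alternative, so no direction is read from them.

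In complex III, 6 of 8 members were above 0, with a median of 0.071, and 0 passed the test. Uqcrq, a small subunit of the membrane part, was at 10.76, 10.73, 10.74 and 10.75 in vehicle and at 10.83, 10.77, 11.12 and 10.94 after DBP. All DBP values exceeded all vehicle values, replicate 2 narrowly (0.17 ± 0.076, adjusted p = 0.271). Uqcr11, another small subunit, was at 10.31, 10.34, 10.36 and 10.34 in vehicle and at 10.42, 10.40, 10.63 and 10.44 after DBP, again without overlap (0.135, adjusted p = 0.292). Cyc1, the cytochrome c1 that hands electrons to cytochrome c, was at 10.48 to 10.52 in vehicle and at 10.53, 10.40, 10.50 and 10.45 after DBP (-0.033, interval -0.15 to 0.086). Uqcrfs1, the Rieske iron-sulfur protein, gave 0.052 (interval -0.072 to 0.18), and the core protein Uqcrc1 0.075 (interval -0.072 to 0.22). The other core protein, Uqcrc2, gave -0.048, with DBP replicates 3 and 4 lowest at 10.81 and 10.69; it was chosen after its values were seen. Uqcrh gave 0.098 (adjusted p = 0.465).

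In complex IV all 18 members had a change above 0 over the 8 arrays as deposited. With DBP replicates 1 and 2 alone 3 of them, Cox6a2, Cox7a1 and Cox6c-ps1, lay below 0, and Cox6a2 also did under quantile normalisation, with array weights, and without DBP replicate 3 or vehicle replicate 1. The median was 0.134, 0 passed the test, and 6, all higher, had an unadjusted p under 0.05 (33.3%, against 11.3% of all genes higher). Cox8a, the form of that subunit in most tissues, was at 11.50, 11.50, 11.51 and 11.50 in vehicle and at 11.56, 11.66, 11.82 and 11.78 after DBP. Every DBP array exceeded the tight vehicle group, and the change was 0.20 ± 0.066 (SE; adjusted p = 0.165). Cox6a1, likewise the widely expressed form, was at 11.17, 11.11, 11.12 and 11.16 in vehicle and at 11.20, 11.22, 11.43 and 11.36 after DBP, without overlap (0.16, adjusted p = 0.235). Cox4i1, the widely expressed form of the largest nuclear subunit, showed no such separation, with 12.03, 11.97, 12.04 and 11.97 in vehicle and 12.05, 11.96, 12.12 and 12.04 after DBP (0.040, interval -0.085 to 0.17). Cox6b1 gave 0.092 (interval -0.035 to 0.22). Ndufa4, once assigned to complex I and now counted with complex IV, gave 0.095 (interval -0.065 to 0.26), and its relative Ndufa4l2, known to be induced by low oxygen, gave 0.098 (interval -0.051 to 0.25). Cox5b, named after its values were seen, did not overlap either (0.155, adjusted p = 0.265).

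Several complex IV subunits have tissue isoforms. Cox7b2, a testis-expressed relative of Cox7b, was at 7.97, 7.84, 7.78 and 7.79 in vehicle and at 8.14, 8.04, 8.37 and 9.46 after DBP. All DBP values were higher, but replicate 4 alone set the size. The change was 0.66 ± 0.25 (SE; 1.58-fold, adjusted p = 0.224), and without DBP replicate 4 it was 0.338 (adjusted p = 0.107). Cox6b2, the sperm form of Cox6b1, was at 8.81, 8.96, 8.97 and 9.01 in vehicle and at 8.98, 9.02, 9.29 and 9.36 after DBP (0.225 ± 0.093, adjusted p = 0.245). It was 0.062 with DBP replicates 1 and 2 alone and 0.388 with replicates 3 and 4 alone (adjusted p = 0.0186 for the latter). Of 7 listed germ cell markers 2 were measured, and both had changes above 0. Both were highest on DBP replicate 3, whereas Cox7b2 and Cox6b2 were highest on replicate 4. Sycp3 of meiotic chromosomes was at 8.92 to 9.17 in vehicle and at 9.28, 9.17, 9.43 and 9.33 after DBP (0.31, adjusted p = 0.0972), and Tex101 gave 0.26 (adjusted p = 0.224). Their median distance from vehicle was 0.45 and 0.385 in DBP replicates 3 and 4 and 0.23 and 0.085 in replicates 1 and 2, and their summed log2 level ran from 9.64 to 9.85 in vehicle and from 9.81 to 10.15 after DBP. Their part in the Cox7b2 and Cox6b2 values was not tested.

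**Figure D2:**
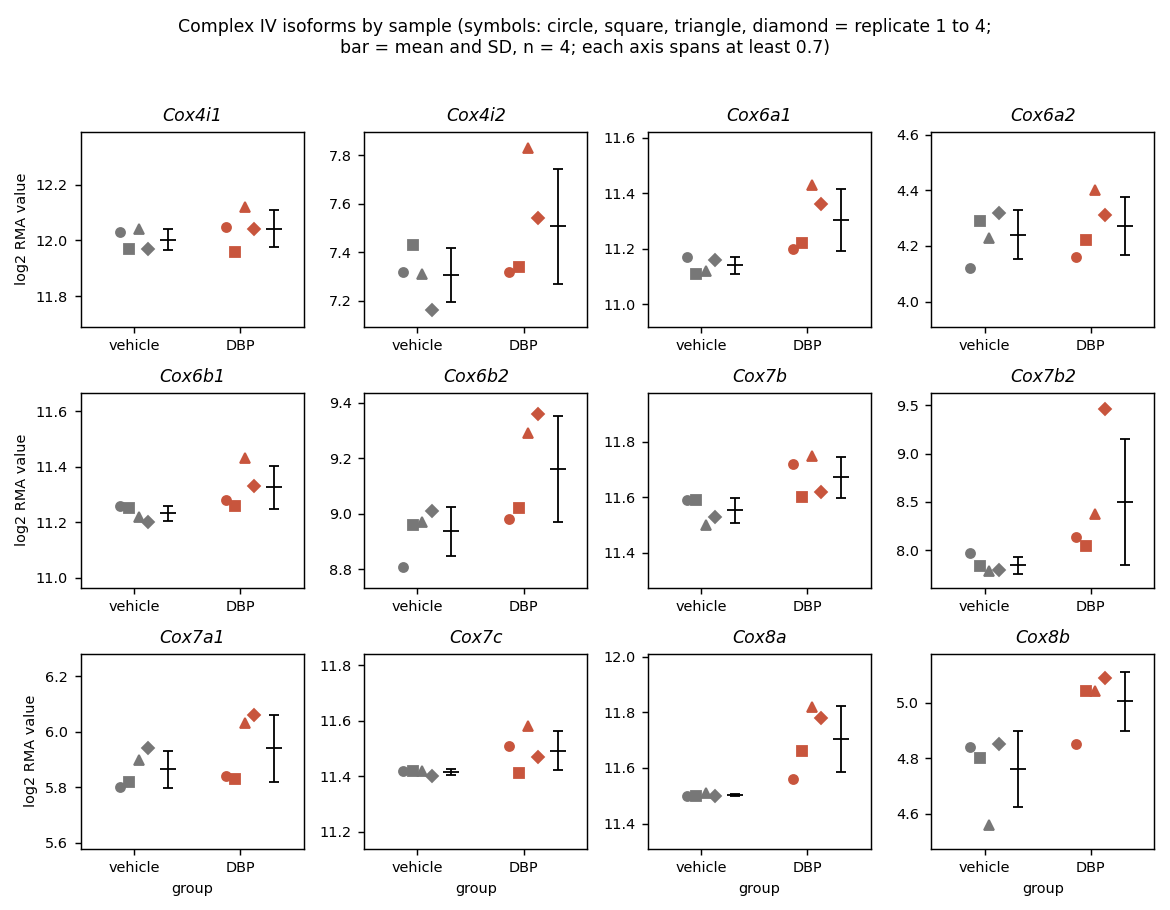
Log2 values of 12 complex IV subunits by sample, vehicle in grey and DBP in red, with 1 symbol per replicate and the mean and SD (n = 4) beside each group. DBP replicate 4 stands alone at 9.46 for Cox7b2, while the Cox8a DBP values of 11.56 to 11.82 all lie above vehicle.

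Of the muscle isoforms, Cox8b was at 4.84, 4.80, 4.56 and 4.85 in vehicle and at 4.85, 5.04, 5.04 and 5.09 after DBP. It lay below a log2 of 5 on average, and its groups met at 4.85 (0.24 ± 0.082, adjusted p = 0.175). Cox7a1 gave 0.075 (5.80 to 5.94 in vehicle and 5.83 to 6.06 after DBP; interval -0.084 to 0.23), and Cox6a2 0.033 (4.12 to 4.32 and 4.16 to 4.40; interval -0.13 to 0.19). Striated muscle markers, all 8 of the list measured, had a median change of 0.22 and 0 past the threshold. At an unadjusted p under 0.05, 4 of the 8 were higher, against 11.3% of all genes. The summed log2 level of the 8 was 8.93 to 8.98 in vehicle and 9.14 to 9.25 after DBP. Of these markers 3, Ckm, Tnnt3 and Mb, averaged under a log2 of 5. Their part in the Cox8b values was not tested. Cox4i2, a form known from lung and responsive to oxygen, was at 7.32, 7.43, 7.31 and 7.16 in vehicle and at 7.32, 7.34, 7.83 and 7.54 after DBP. Only replicates 3 and 4 exceeded vehicle (0.2025, adjusted p = 0.354). Cox6c-ps1, by its name a pseudogene of Cox6c, lay at 4.37 to 5.10 after DBP, and signal from Cox6c itself on its probes cannot be told apart; it was chosen after its values were seen.

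In complex V, 12 of 15 members were above 0, with a median of 0.085, and 0 passed the test. The alpha and beta subunits, which form the catalytic sites, stayed at the vehicle level, and their signs turned under rescaling. Atp5f1a was at 11.69, 11.67, 11.69 and 11.70 in vehicle and at 11.71, 11.67, 11.68 and 11.68 after DBP (-0.0025, interval -0.11 to 0.11). Atp5f1b was at 12.29, 12.32, 12.34 and 12.35 in vehicle and at 12.32, 12.33, 12.30 and 12.33 after DBP (-0.005, interval -0.12 to 0.11). With the gamma subunit Atp5f1c, these 3 had a median distance from vehicle of -0.008 on DBP replicate 3, where the other 12 subunits had 0.251; this grouping was made after the values were seen. The 12 others were each above 0 in the comparison of all 8 arrays, with a median of 0.089. With DBP replicates 1 and 2 alone 3 of them, Atp5mc3, Atp5f1e and Atp5mg, lay below 0, and Atp5mg also did with the RNA integrity covariate. Atp5me, a small membrane subunit, was at 9.85, 9.84, 9.82 and 9.86 in vehicle and at 9.97, 9.98, 10.14 and 9.99 after DBP. Every DBP value lay above vehicle (0.18 ± 0.058, SE; adjusted p = 0.164), although a second, dimmer probe set of the gene gave 0.0075 and the mean of both 0.092. Atp5f1d, the delta subunit of the central stalk, was at 10.15 to 10.21 in vehicle and at 10.25, 10.29, 10.50 and 10.31 after DBP, also without overlap (0.16, adjusted p = 0.239). Atp5mk (0.16, adjusted p = 0.27) and Atp5mpl (0.15, adjusted p = 0.266), both small membrane proteins of the synthase, had unadjusted p-values under 0.05, and their groups met or overlapped. Atp5mc3, which encodes the c subunit of the rotor ring, gave 0.042 (interval -0.091 to 0.18).

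**Figure D3:**
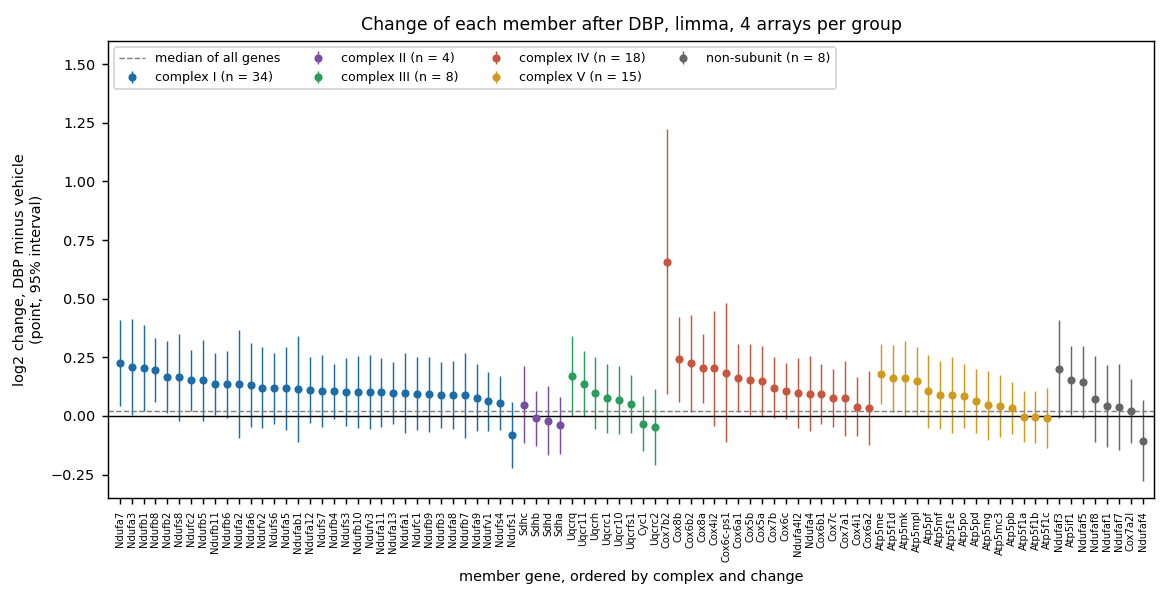
Log2 change of each of the 87 members (points) with its 95% confidence interval from limma, 4 arrays per group, ordered by complex and size. The dashed line is the median of all genes, 0.022; the intervals of 19 members exclude 0 before adjustment, Cox7b2 has the widest, and 10 members lie below 0.

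Among the 8 members that are not subunits, Atp5if1, the inhibitor that keeps the ATP synthase from running backwards, had the smallest unadjusted p. It was at 10.22, 10.21, 10.10 and 10.08 in vehicle and at 10.43, 10.23, 10.32 and 10.24 after DBP, without overlap (0.15 ± 0.066, adjusted p = 0.259). Its 2 other probe sets, dim ones, gave 0.05 and 0.165. Ndufaf3, a complex I assembly factor, was at 8.46, 8.44, 8.41 and 8.43 in vehicle and at 8.50, 8.49, 8.61 and 8.94 after DBP. Replicate 4 set the mean change of 0.20 (adjusted p = 0.291). Ndufaf5 gave 0.145 (adjusted p = 0.3) and Ndufaf4 -0.105 (adjusted p = 0.482), the latter lowest in DBP replicates 2 and 4, at 8.31 and 8.23. Cox7a2l, which joins complexes III and IV into supercomplexes, gave 0.022 (interval -0.11 to 0.16). The 8 had a median of 0.057.

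Further probe sets were weak evidence either way. Another 10 probe sets belonged to 9 of the members, 6 of them with a mean log2 above 5; their median change was 0.021, with 6 above 0 and 4 below, and 0 passed. The bright second probe sets of Sdhd and Uqcrc2 gave 0.035 and -0.0025. A further 7 probe sets were annotated to several symbols, 1 of them within the rule, and were left out as members. Their median was 0.128, 6 of 7 lay above 0, and 6 had their highest value on DBP replicate 3.

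Other mitochondrial gene lists were set beside the members. Of the 73 measured mitochondrial ribosomal proteins, which translate the subunits encoded in mitochondrial DNA, 62 were above 0 with a median of 0.082, and 0 passed. As in the members, their median distance from vehicle was lowest in DBP replicate 2 and highest in replicate 3, at 0.097, -0.03, 0.215 and 0.038 in replicates 1 to 4, and 63 of them were highest on replicate 3. Mrpl40 had the smallest p among them (0.25, adjusted p = 0.163), with DBP values of 8.55, 8.41, 8.80 and 8.53 against 8.30 to 8.38 in vehicle. In the mean over its probe sets Mrpl40 gave 0.171. The 50 cytosolic ribosomal proteins had a median of 0.014 and stood at 0.056 on replicate 3. Of these 50, 24 were highest on replicate 3, against 22.6% of all genes. Rpl39l1 had the smallest p among them (0.42, adjusted p = 0.111), and Rps13 was lower (-0.315, adjusted p = 0.116). Pyruvate dehydrogenase and the citric acid cycle, which supply the electrons, gave a median of 0.01 over 16 genes and 0.011 on replicate 3. Ogdh of that cycle was the single gene with an unadjusted p under 0.05, at -0.21 (adjusted p = 0.222). Glycolysis gave -0.021 over 14 genes, with Pfkp higher (0.25, adjusted p = 0.119) and Pgam1 lower (-0.15, adjusted p = 0.202).

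**Figure D4:**
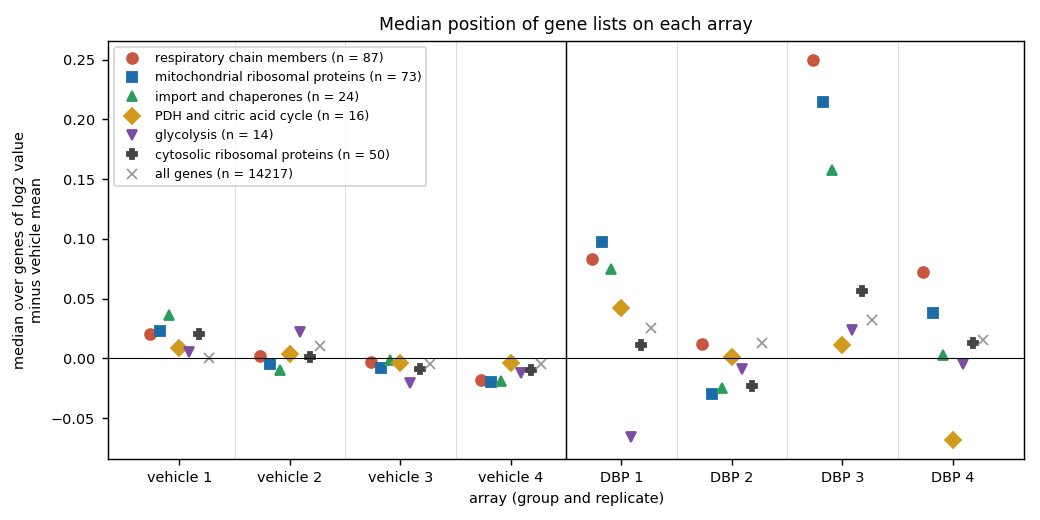
For each array, the median over a gene list of the log2 value minus that gene's vehicle mean. On DBP 3 the respiratory chain (0.25) and mitochondrial ribosomal (0.215) medians stand above all genes (0.032), while the citric acid cycle list stays at 0.011.

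The subunits encoded in mitochondrial DNA were represented by 2 probe sets, which did not share the upward shift. They averaged log2 values of 13.79 (COX1) and 14.04 (COX2), above the brightest member, Atp5f1b, at 12.32. Small changes of such bright probe sets can be compressed. COX1, a catalytic subunit of complex IV, was at 13.85, 13.84, 13.91 and 13.90 in vehicle and at 13.73, 13.75, 13.86 and 13.49 after DBP (-0.17, interval -0.34 to 0.0049; adjusted p = 0.286). COX2, which receives electrons from cytochrome c, gave -0.037 (interval -0.15 to 0.077). Of 21 genes listed for coenzyme Q synthesis, cytochrome c and ATP export, 18 were above 0 with a median of 0.078, and 0 passed. Coq2, of coenzyme Q synthesis, had the smallest p (0.21, adjusted p = 0.161). That list also held uncoupling proteins, among them Ucp3 (0.21, adjusted p = 0.165). Of 42 assembly factors outside the rule's prefixes 19 were above 0, with a median of -0.009 and 0 past the threshold. Their median distance from vehicle was still highest on DBP replicate 3, at 0.107, and lowest on replicate 2, at -0.077. Of the 42, 21 had their highest value on replicate 3, against 22.6% of all genes. Cox17, the copper chaperone of complex IV, was at 8.93 to 8.99 in vehicle and at 9.16, 9.05, 9.39 and 9.30 after DBP (0.27, adjusted p = 0.12), and Foxred1, of complex I assembly, was lower in every DBP array (-0.21, adjusted p = 0.16).

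Regulators of mitochondrial biogenesis did not lie higher as a list, with 8 of 19 above 0, a median of -0.008 and 0 past the threshold. Nrf1 encodes the factor whose letters were matched in the Sdha and Atp5me promoters, where binding was not tested. It was at 7.77, 7.66, 7.83 and 7.79 in vehicle and at 7.56, 7.64, 7.27 and 7.58 after DBP. All DBP values were lower, replicate 3 most (-0.25 ± 0.084, adjusted p = 0.175). Gabpa, the DNA-binding part of GABP, gave -0.20 (adjusted p = 0.252). Ppargc1a, a coactivator of both, gave 0.285 from a dim probe set at 3.94 to 4.20 in vehicle (adjusted p = 0.131). In the mean over its probe sets Ppargc1a gave 0.131 (adjusted p = 0.203 in limma). Of 24 genes for import and folding of mitochondrial proteins, 1 passed, where 1.22% of all genes did. Hspe1, the co-chaperonin, was at 12.33 to 12.38 in vehicle and rose to 12.63, 12.64, 12.73 and 12.68 after DBP (0.31 ± 0.052, adjusted p = 0.0224; 0.278 with replicates 1 and 2 alone, adjusted p = 0.0435). That call was lost whichever vehicle array was left out (adjusted p of 0.0697 to 0.0955). Timm17b, of the inner membrane import channel, was higher in every DBP array (0.28, adjusted p = 0.0652). It passed with the filter above log2 5 (adjusted p = 0.0488), the filter above the median (0.0386) and the trend and robust prior (0.038). The mean over probe sets (0.0421) and DBP replicates 3 and 4 alone (0.0195) also let it pass, while most alternatives did not. The list's median was 0.064, and it stood at 0.158 on DBP replicate 3.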

How the data were processed

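The 8 fetal testis RNA samples were each measured on 1 Affymetrix rat array. The deposited values are log2 signals made by the authors with RMA, per the submitters' processing notes (version not given in the sources used here), at 2 decimals. Scanner files were not analysed here. Testing covered 31042 of the 31099 probe sets, leaving out 57 array controls. The platform's gene table gave 20826 probe sets 1 symbol, 436 several and 9780 none; only the first kind was named. No pair of arrays was identical.

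Groups were compared over all probe sets with limma 3.58.1 in R 4.3.3 (lmFit and eBayes, no trend or robust option, no covariate), 2-sided, with Benjamini-Hochberg adjustment over all 31042 and a threshold of 0.05. Every adjusted p comes from this model unless an alternative is named, and intervals are its 95% intervals. RMA does not remove differences between samples in RNA quality or cell makeup, and it can compress small changes of bright probe sets. On simulated data for DBP against vehicle (31042 probe sets), 100 of 100 changes of log2 1 and 88 of 100 of log2 0.5 were called, with 5 false calls. The simulated noise was independent, with the same SD in both groups and no shift shared by genes on an array, unlike these data. Its changes were also larger than those of nearly all members, so these rates do not describe changes of the members' size. Members, gene lists and alternatives were chosen with earlier results of these data known. Named members were the 4 with the smallest unadjusted p in each complex and among the non-subunit members, any past the threshold, and a fixed set of isoforms and catalytic subunits; in the other lists, those past the threshold and up to 3 with the smallest p. Tables and figures were made with Python 3.11.15, pandas 2.3.3 and matplotlib 3.10.9. Promoter letters were searched with a script on both strands. Alternatives were filters on signal, rescaling, other priors and weights, covariates, a replicate block, means over probe sets and left-out arrays.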

Additional observations from a re-analysis of the deposited data

Results flagged for a closer look

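Within groups of 4, a single array lay far from the other 3 in 3 of 82 groups tested (41 named members in 2 groups); chance gives about 1 in 20. Atp5me on DBP replicate 3, at 10.14, stood above the other DBP arrays. Sdha on vehicle replicate 1, at 10.88, stood above the other vehicle arrays. Cox8a on vehicle replicate 3, at 11.51, differed from the other vehicle arrays by the last digit of the deposited values only.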

How the results depend on the processing

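Over 21 alternatives the median change of the members stayed above 0 and above that of all genes, from 0.048 with DBP replicates 1 and 2 alone to 0.158 with replicates 3 and 4 alone. Leaving out 1 array at a time gave 0.052 (without DBP replicate 3) to 0.136 (without DBP replicate 2). The count of members past the threshold was 0 except with DBP replicates 3 and 4 alone, at 13. The count over all probe sets moved most, from 331 to 577 with DBP replicates 1 and 2 alone, 4129 with replicates 3 and 4 alone, 74 with unmoderated statistics, and 82 to 606 with 1 array left out. The cause was not tested. The median of the cytochrome c, coenzyme Q and ATP export list (0.078) was 0.055 with the RNA integrity covariate, 0.100 after a median shift, 0.101 after quantile normalisation and 0.052 to 0.107 with 1 array left out. The median shift moved the members' median to 0.122 and that of all genes to 0.045.

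Signs turned for small changes. With DBP replicates 1 and 2 alone Atp5f1a gave 0.002, Atp5mc3 -0.030, Cox6a2 -0.050, Cox7a1 -0.030, Ndufab1 -0.040, Sdha 0.010, Sdhc -0.030 and Uqcrc1 -0.020. With the RNA integrity covariate Atp5f1b gave 0.003 and Sdhc -0.014; with array weights Atp5f1a gave 0.002, Cox6a2 -0.007 and Sdhd 0.008. The mean over probe sets gave 0.008 for Sdhd and 0.036 for Hk1. The median shift gave 0.020 for Atp5f1a, 0.018 for Atp5f1b, 0.012 for Sdhb and 0.002 for Sdhd, and quantile normalisation 0.021 for Atp5f1b and -0.024 for Cox6a2. With 1 array left out, the ranges were -0.011 to 0.002 for Atp5f1a, -0.017 to 0.003 for Atp5f1b, -0.010 to 0.070 for Cox6a2, -0.008 to 0.058 for Cox7a2l, -0.024 to 0.009 for Sdhb, -0.003 to 0.113 for Sdhc and -0.048 to 0.022 for Sdhd. The cause was not tested.

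Replicate numbers are shared between groups, but samples with the same number deviated together by correlations of only 0.108, -0.076, 0.097 and -0.021 and were not treated as pairs. With the replicate block 175 probe sets and 0 members passed, and Hspe1 lost its call (adjusted p = 0.0762). Small changes of these members lie near the limit that 4 arrays per group can resolve, with a median SE of 0.066.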
